A study of Mus musculus with 6 samples.

Results

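The genes described here are 35 regulators of pre-mRNA splicing, taken by symbol from the 25170 genes of a table of RNA-seq expression values. They are 11 SR proteins (Srsf1 to Srsf7 and Srsf9 to Srsf12), the Tra2 pair, the Rbfox and Mbnl proteins, the epithelial regulators Esrp1, Esrp2 and Rbm47, Ptbp2 and Ptbp3, Celf1 and Celf2, the STAR proteins Qk, Khdrbs1 and Khdrbs3, the neural and muscle regulators Nova1, Nova2, Srrm4 and Rbm24, the Tia and Elavl proteins, and U2af1. Of these, 32 averaged 1 FPKM (fragments counted on a gene, corrected for its transcript length and for sequencing depth) or more over the 6 libraries, and they were tested among the 11785 genes that met this minimum. The cells are E14, an established line of mouse embryonic stem cells (ESCs) grown in serum, and the same line after knockout of Hnrnpf, which encodes an RNA-binding protein of the hnRNP H/F family that binds G-rich RNA. Knockout (KO) and wild type (WT) cells were sampled after 4 days without LIF, in 2 KO libraries and 1 WT library, and in medium with LIF, again in 2 KO libraries and 1 WT library. LIF is a cytokine that supports self-renewal of mouse ESCs, and cells deprived of it begin to differentiate. How the knockout was made, which part of the gene it removed and whether knockout numbers 1 and 2 are clones or cultures was not stated in the labels. The p-values below therefore reflect variation among these 6 libraries only, part of which may be technical.

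SR proteins bind exonic enhancer sequences through RNA recognition motifs and recruit the spliceosome through arginine- and serine-rich domains. Nearly all cells need them, and each cell adjusts their levels through splicing of their own transcripts. Tissue regulators such as Mbnl, Rbfox, Celf, Esrp and Nova proteins bind short motifs beside alternative exons and set the exon choice typical of a tissue. In mouse and human ESCs, Mbnl proteins are known to be scarce and to repress exon choices typical of ESCs when their level is raised. The values here are 1 per gene, so they give the amount of each regulator's RNA and not the isoforms it makes or the exons it controls.

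The RNA of the targeted gene was lower in the libraries labelled knockout. Hnrnpf had 95.2 and 27.8 FPKM in KO against 335 FPKM in WT cells without LIF, or 28.4% and 8.28% of the WT level. In LIF it had 98.7 and 37.1 FPKM in KO against 342 FPKM in WT cells, or 28.9% and 10.8%. The values of a library summed to between 456155 and 556318 FPKM, and depth relative to the wild type library with LIF, read from steps between low values, was 0.841 to 1.08. All 6 pluripotency markers examined were expressed, with a summed level of 3342 and 2659 FPKM in KO and 3612 FPKM in WT cells without LIF, against 6121 and 6089 FPKM in KO and 8774 FPKM in WT cells with LIF. The 3 libraries after LIF removal were all below the 3 with LIF. Most of each sum was Dppa5a. It had 2117 and 1542 FPKM in KO and 2155 FPKM in WT cells without LIF. With LIF it had 4062 and 4115 FPKM in KO and 6460 FPKM in WT cells.

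Members differed widely in level. Srsf2, an SR protein of nuclear speckles, was the highest, at 503 to 593 FPKM. Srsf3, which also couples splicing to mRNA export, lay at 166 to 238 FPKM and Srsf6 at 170.3 to 202 FPKM. The founding family member Srsf1 lay at 147 to 168 FPKM. The next levels were those of Srsf7 (139 to 163 FPKM), Tra2a (119.6 to 143 FPKM), Srsf9 (73.7 to 136 FPKM) and Srsf5 (88.4 to 125 FPKM). Srsf10 lay at 81.4 to 111 FPKM, Srsf11 at 83.4 to 109.9 FPKM and Srsf4 at 54.1 to 75.9 FPKM. Ordered by mean level, neighbours among the 35 members overlapped in range, except Srsf2 over Srsf3, Srsf6 over Srsf1, Elavl1 over Rbfox2 and Rbm47 over Esrp2. Srsf12 was the exception of the family, at 0.550 to 2.70 FPKM.

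Among the other members, the STAR protein Khdrbs1 (Sam68) lay at 63.2 to 116 FPKM and the GU-binding protein Celf1 at 70.4 to 91.2 FPKM. Tra2b lay at 60.8 to 82.1 FPKM and Elavl1 at 33.7 to 42.5 FPKM. Among tissue regulators high levels were found for Qk (38.2 to 68.1 FPKM) and the epithelial splicing regulator Esrp1 (29.4 to 57.2 FPKM). Esrp2, its paralog, was lower, at 4.60 to 6.04 FPKM. Rbfox2, which binds UGCAUG, lay at 24.7 to 27.9 FPKM. Ptbp2 and Ptbp3 lay at 20.1 to 32.2 FPKM and 19.3 to 30.0 FPKM, Khdrbs3 at 15.5 to 29.4 FPKM and U2af1 at 16.2 to 22.7 FPKM. Tial1 (20.4 to 27.3 FPKM) was above its paralog Tia1 (10.9 to 21.2 FPKM) in every library, though their ranges met. Within the Mbnl family Mbnl2 was the highest (12.7 to 23.0 FPKM), with Mbnl1 at 0.898 to 5.22 FPKM and Mbnl3 at 0.989 to 2.87 FPKM. Nova1 stood at 1.69 to 3.08 FPKM, Celf2 at 0.851 to 4.15 FPKM and Rbm47 at 6.40 to 12.6 FPKM. The 3 members below the minimum of 1 FPKM were all neural or muscle regulators. Nova2, a neuronal regulator, lay at 0.568 to 1.29 FPKM, Rbm24, a muscle regulator, at 0.0763 to 0.578 FPKM, and Srrm4, which promotes neural microexons, at 0.0739 to 0.256 FPKM. Of the 7 neural markers examined 5 averaged 1 FPKM or more, and of the 6 muscle markers 2 did. Between knockout numbers 2 and 1, the log2 level of a tested member differed by a median of 0.18 without LIF and 0.12 with LIF, against 0.20 and 0.18 for all tested genes.

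**Figure D1:**
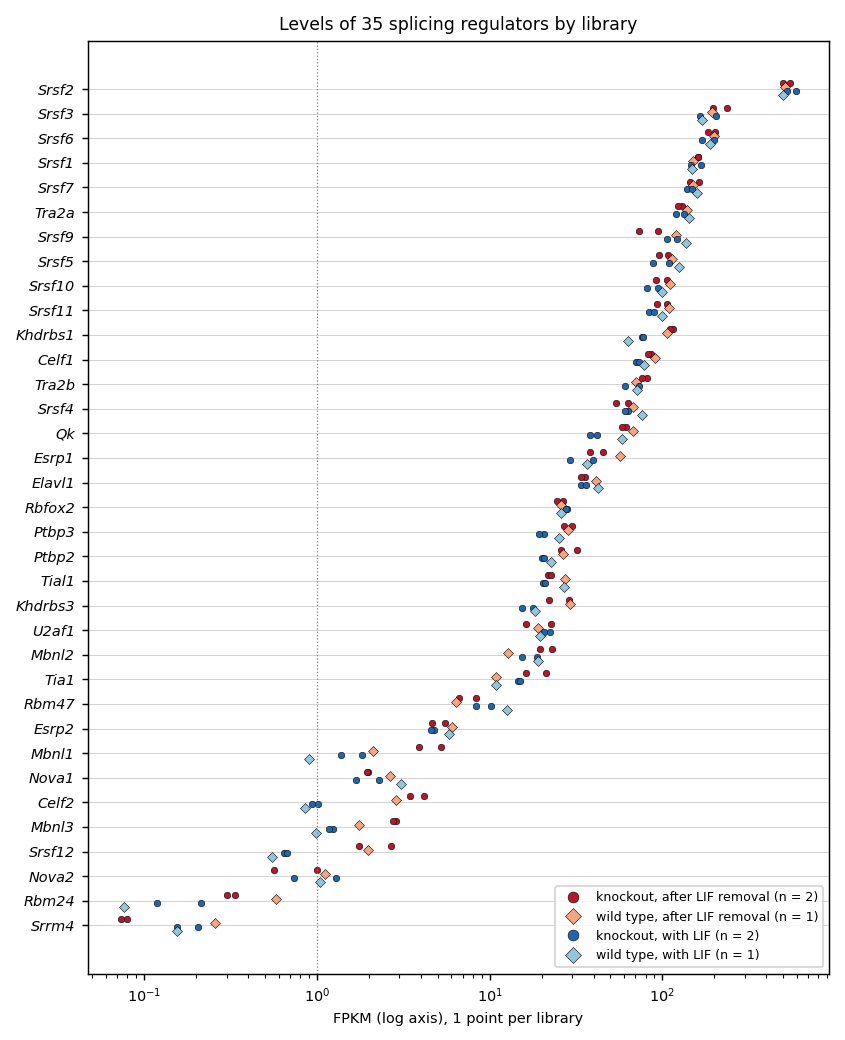
FPKM (log axis) of the 35 members, 1 point per library, ordered by mean level; the dotted line marks 1 FPKM. Srsf2 stands highest at 503 to 593 FPKM, the 3 untested members lie at the bottom, and Celf2, Mbnl1, Mbnl3 and Srsf12 show the libraries after LIF removal to the right of those with LIF.

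The effect of LIF removal over both genotypes was tested with limma on log2(FPKM + 1), with genotype and medium both in the model. Genes passed at an adjusted p (Benjamini-Hochberg) under 0.05. Because 1 is added, low genes change by less on this scale than in FPKM. Of the 32 members, 7 rose after LIF removal: Celf2, Mbnl1, Srsf12, Mbnl3, Khdrbs1, Khdrbs3 and Qk. None fell. Over all tested genes the share that passed was 21.4%, made up of 8.73% with higher and 12.7% with lower levels. Of the 7, Srsf12 and Celf2 averaged under 1 FPKM with LIF and met the minimum only through the libraries without LIF, where they are high; leaving both aside, 5 of 30 members rose. In each of the 7, all 3 libraries after LIF removal lay above all 3 with LIF. Including Ptbp2, Ptbp3 and Celf1, this held for 10 of the 32 members, Srsf12 and Celf2 among them, and for 14.9% of tested genes. The shares over all tested genes also keep genes that met the minimum through 1 medium only. The median difference of the members was 0.11, against -0.03 for all tested genes. Every value behind these 7 calls comes from bulk RNA, in which more cells expressing a gene and more RNA per cell cannot be told apart. The count was 0 with no minimum level. With a minimum mean of 5 FPKM it was 4, namely Khdrbs1, Khdrbs3, Qk and, in addition to the 7, Ptbp3. With 1 library left out it was 4 to 5, Esrp1 among them (adjusted p = 0.0334) without knockout number 2 with LIF.

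Celf2 (chromosome 2, 6539694 to 7396341, positions from RefSeq on GRCm38.p6), a GU-binding regulator of splicing known from brain, heart and T cells, had 3.47 and 4.15 FPKM in KO and 2.86 FPKM in WT cells without LIF, against 1.02 and 0.936 FPKM in KO and 0.851 FPKM in WT cells with LIF. The mean after LIF removal was 3.73 times that with LIF, and the log2 difference was 1.21 (SE 0.17, adjusted p = 0.00359). Its lowest library without LIF was well above its highest with LIF.

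Srsf12 (chromosome 4, 33208991 to 33233343), the least abundant SR protein here, had 2.70 and 1.76 FPKM in KO and 1.99 FPKM in WT cells without LIF, against 0.650 and 0.672 FPKM in KO and 0.550 FPKM in WT cells with LIF. Its mean was 3.44 times as high after LIF removal as with LIF, with a log2 difference of 0.94 (SE 0.19, adjusted p = 0.0128). Without the wild type library after LIF removal or the one with LIF, Srsf12 no longer passed (adjusted p = 0.0735 and 0.0697).

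The muscleblind proteins Mbnl1 and Mbnl3 rose as well. Mbnl1 (chromosome 3, 60472559 to 60629750), a regulator of the switch to adult exon choices in muscle and brain, had 5.22 and 3.88 FPKM in KO and 2.13 FPKM in WT cells without LIF, against 1.38 and 1.82 FPKM in KO and 0.898 FPKM in WT cells with LIF. The ratio of means was 2.73 and the log2 difference 0.96 (SE 0.19, adjusted p = 0.0112). Within each medium both knockout libraries lay above the wild type library. Mbnl3 (chromosome X, 51113494 to 51205990) had 2.87 and 2.74 FPKM in KO and 1.76 FPKM in WT cells without LIF, against 1.25 and 1.17 FPKM in KO and 0.989 FPKM in WT cells with LIF. Its ratio was 2.17 and its difference 0.68 (SE 0.17, adjusted p = 0.0277), and it lost the call when any 1 library was left out (adjusted p = 0.0734 to 0.0815). It also lost it, at 0.54 (adjusted p = 0.0535), with values centred on the median of each chromosome. Mbnl2, the most abundant of the family, did not pass. It had 19.7 and 23.0 FPKM in KO and 12.7 FPKM in WT cells without LIF, against 15.4 and 18.8 FPKM in KO and 19.0 FPKM in WT cells with LIF. Its groups overlapped, and the difference was 0.02 (SE 0.19, adjusted p = 0.937).

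All 3 STAR proteins rose. Khdrbs1 (chromosome 4, 129702380 to 129743878), which binds UA-rich RNA and links signalling to splicing, had 116 and 111 FPKM in KO and 106 FPKM in WT cells without LIF, against 76.3 and 77.4 FPKM in KO and 63.2 FPKM in WT cells with LIF. The ratio was 1.54 and the difference 0.62 (SE 0.09, adjusted p = 0.00475). Its groups were separated by more than the spread within either. Khdrbs3 (chromosome 15, 68928392 to 69101794), its relative best known in brain, had 22.2 and 29.0 FPKM in KO and 29.4 FPKM in WT cells without LIF, against 18.0 and 15.5 FPKM in KO and 18.4 FPKM in WT cells with LIF. The ratio was 1.55 and the difference 0.60 (SE 0.13, adjusted p = 0.0186), with all 3 libraries without LIF above the 3 with it. Qk (chromosome 17, 10206471 to 10319361), which binds ACUAA-type elements and is known for roles in glia and smooth muscle, had 61.3 and 58.5 FPKM in KO and 68.1 FPKM in WT cells without LIF, against 38.2 and 41.8 FPKM in KO and 58.4 FPKM in WT cells with LIF. Its ratio was 1.36 and its difference 0.45 (SE 0.11, adjusted p = 0.0259). The wild type library with LIF, at 58.4 FPKM, lay only just below the lower knockout library after LIF removal, at 58.5 FPKM. Qk lost the call without any 1 of the 4 knockout libraries (adjusted p = 0.0631 to 0.0877). Khdrbs3 lost it without either wild type library or knockout number 2 of either medium (0.0553 to 0.102), while Celf2, Mbnl1 and Khdrbs1 passed without each of the 6 libraries. The summed level of the 3 STAR proteins was 199.5 and 198 FPKM in KO and 204 FPKM in WT cells without LIF, against 132 and 135 FPKM in KO and 140.0 FPKM in WT cells with LIF.

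**Figure D2:**
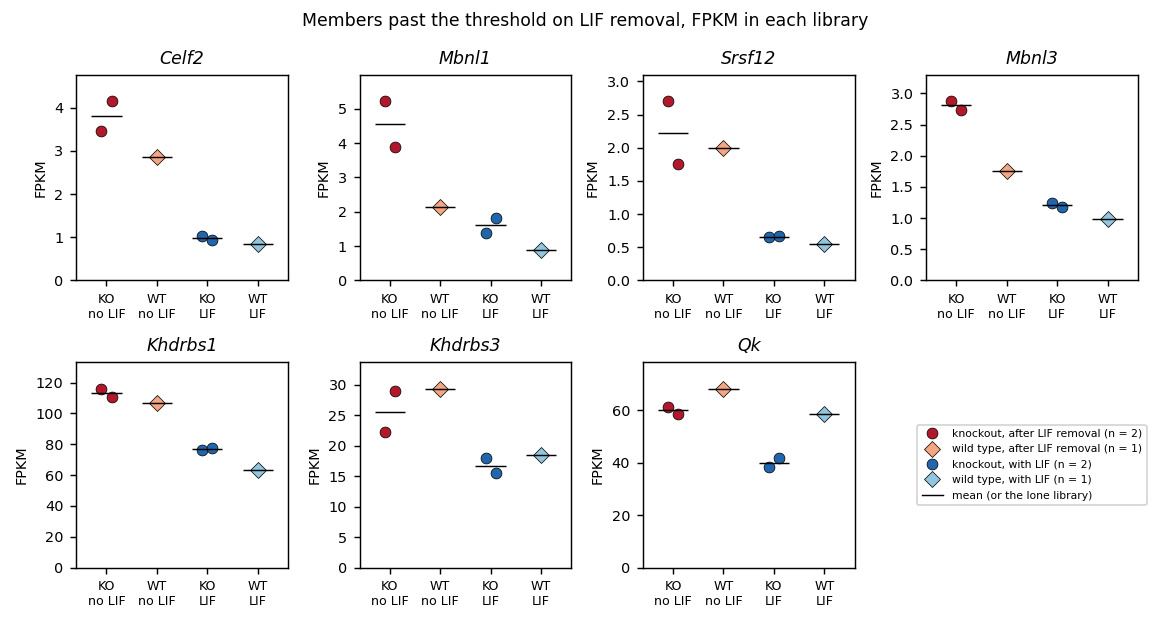
FPKM (linear axes from 0) of the 7 members past the threshold on LIF removal, 1 point per library, with knockout left of wild type in each medium and a bar at the mean of a group. In each panel the 3 libraries after LIF removal lie above the 3 with LIF, with the narrowest gap for Qk (58.5 against 58.4 FPKM).

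The promoters of the members that rose are shown as a description. These members were chosen by that call, and shared control of them was not tested. Sequences are those of RefSeq on GRCm38.p6 (the build also called mm10), 250 bases before to 50 bases after a start. The table used here holds 29 of the 35 members, and 26 of the 32 tested ones, with 38 starts. Of the 7 that rose, Celf2 (5 starts), Khdrbs1 and Khdrbs3 are not shown. Capitals mark matches, on either strand, to 5 motifs. The STAT site was searched as TTCNNNGAA. The GC box was searched as GGGCGG. The E-box was searched as CACGTG and the TATA box as TATAAA. The CCAAT box was searched by the letters of its name. Each sequence is written 5′ to 3′ on the strand of its gene.
Mbnl1 upstream start, chr3:60472580-60472879 (plus strand): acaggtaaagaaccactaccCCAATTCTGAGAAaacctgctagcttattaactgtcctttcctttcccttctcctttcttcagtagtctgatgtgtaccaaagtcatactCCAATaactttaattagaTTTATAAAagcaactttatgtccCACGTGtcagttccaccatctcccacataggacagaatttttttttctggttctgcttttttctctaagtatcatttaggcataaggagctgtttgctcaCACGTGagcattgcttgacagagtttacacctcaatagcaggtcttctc
Mbnl1 downstream start, chr3:60500929-60501228 (plus strand): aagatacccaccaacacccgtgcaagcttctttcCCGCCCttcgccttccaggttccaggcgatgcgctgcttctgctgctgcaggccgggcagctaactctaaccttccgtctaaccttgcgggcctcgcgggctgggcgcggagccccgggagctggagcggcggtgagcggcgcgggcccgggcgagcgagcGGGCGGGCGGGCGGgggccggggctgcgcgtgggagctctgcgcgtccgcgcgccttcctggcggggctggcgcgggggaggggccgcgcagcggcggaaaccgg
Srsf12, chr4:33209022-33209321 (plus strand): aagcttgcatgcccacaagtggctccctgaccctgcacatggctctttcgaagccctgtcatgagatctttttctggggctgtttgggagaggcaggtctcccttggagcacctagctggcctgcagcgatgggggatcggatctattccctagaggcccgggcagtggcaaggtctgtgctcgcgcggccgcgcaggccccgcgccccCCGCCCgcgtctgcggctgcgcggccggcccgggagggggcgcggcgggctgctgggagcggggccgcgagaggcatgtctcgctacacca
Qk, chr17:10319312-10319611 (minus strand): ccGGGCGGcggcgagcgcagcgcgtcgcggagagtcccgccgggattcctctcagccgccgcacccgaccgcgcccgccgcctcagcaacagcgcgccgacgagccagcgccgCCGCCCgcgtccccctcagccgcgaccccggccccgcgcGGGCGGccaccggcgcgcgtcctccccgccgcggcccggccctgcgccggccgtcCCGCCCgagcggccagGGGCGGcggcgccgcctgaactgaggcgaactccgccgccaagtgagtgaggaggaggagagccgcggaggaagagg
Mbnl3, chrX:51205941-51206240 (minus strand): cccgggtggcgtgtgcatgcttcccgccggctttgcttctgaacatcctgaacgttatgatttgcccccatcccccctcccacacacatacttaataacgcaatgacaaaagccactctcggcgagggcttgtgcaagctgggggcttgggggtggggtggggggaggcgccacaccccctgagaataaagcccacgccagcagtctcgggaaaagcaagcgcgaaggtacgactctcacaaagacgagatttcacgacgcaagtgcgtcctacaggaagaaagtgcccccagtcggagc

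These 5 sequences differed in CpG content and in the motifs they hold. CpG dinucleotides numbered 2 and 41 at the Mbnl1 starts, 26 at Srsf12, 57 at Qk and 19 at Mbnl3, against a median of 25 over the 38 starts of tested members and 21 over those of all tested genes. The upstream Mbnl1 start holds a match to the STAT letters, which overlaps a CCAAT match, and 2 E-boxes. STAT3 is a transcription factor that LIF activates. Which Mbnl1 start these cells use cannot be read from values given per gene, and a role of STAT3 was not tested. Among the 38 starts of tested members 3 hold the STAT letters (7.9%), the other two being starts of Tial1 that overlap each other, against 6.5% of starts of tested genes and 8.3% of all starts. A GC box was found in 26 (68.4%, against 64.4% and 35.7%) and a CCAAT box in 10 (26.3%, against 38.5% and 37.4%). A TATA box was found in 4 (10.5%, against 6.8% and 13.6%) and an E-box in 1 (2.6%, against 10.3% and 7.2%). Some starts overlap each other, those of U2af1 and some of Srsf4 among them, so these counts hold some bases more than once. A match is a description of these letters and not of binding.

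Most SR proteins gave no call on LIF removal. None of the 10 SR proteins other than Srsf12 passed the threshold, and their median difference was 0.04. Srsf1 differed by 0.03 (95% interval -0.18 to 0.24), Srsf2 by -0.05 (-0.27 to 0.17), Srsf6 by 0.07 (-0.16 to 0.30) and Srsf7 by 0.04 (-0.18 to 0.26). Changes within these intervals cannot be told from 0 here. Srsf3 (0.21), Srsf10 (0.17) and Srsf11 (0.18) had higher means after LIF removal and Srsf4 (-0.11) a lower one, all within overlapping groups. Srsf5 differed by -0.01. These differences depend on scaling. After quantile normalization those of all 10 were higher, and Srsf2 (0.15) and Srsf5 (0.10) were above 0. Srsf3 then differed by 0.32, Srsf11 by 0.30 and Srsf10 by 0.28 (adjusted p = 0.0851, 0.0686 and 0.0972). Srsf4 and Srsf9 stayed below 0, and none of the 10 passed. Srsf9 had the lowest difference of the family, -0.36 (SE 0.13, adjusted p = 0.0787). The summed level of all 11 was 1766 and 1633 FPKM in KO and 1733 FPKM in WT cells without LIF, against 1592 and 1776 FPKM in KO and 1705 FPKM in WT cells with LIF. The log2 range over the 6 libraries had a median of 0.42 for the 10 SR proteins, against 0.72 for all tested genes and 0.61 for the 1985 tested genes that averaged 50 FPKM or more.

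Other members came close to the threshold. Ptbp3, a PTB relative known from blood cells, had a difference of 0.39 (SE 0.12, adjusted p = 0.0509), and Ptbp2, the neuronal PTB protein, one of 0.39 (SE 0.13, adjusted p = 0.0591). Both had all 3 libraries after LIF removal above the 3 with LIF, at 27.1 to 30.0 against 19.3 to 25.2 FPKM for Ptbp3. Ptbp3 passed with a minimum mean of 5 FPKM, after quantile normalization, after median ratio scaling and with centring per chromosome (adjusted p = 0.0481, 0.0312, 0.0410 and 0.0306). Ptbp2 passed after quantile normalization and median ratio scaling (adjusted p = 0.0386 and 0.0489). Celf1 was also separated, with 0.23 (SE 0.09, adjusted p = 0.109), and passed after quantile normalization (adjusted p = 0.0380). Among epithelial regulators Esrp1 had 0.39 (SE 0.15, adjusted p = 0.0962), Esrp2 0.08 (SE 0.14, adjusted p = 0.734) and Rbm47 -0.48 (SE 0.18, adjusted p = 0.0883). Rbm47, which also assists C-to-U editing of mRNA, had 6.61 and 8.37 FPKM in KO and 6.40 FPKM in WT cells without LIF, against 8.40 and 10.2 FPKM in KO and 12.6 FPKM in WT cells with LIF. It was the only tested member with all 3 libraries after LIF removal below the 3 with LIF, which 16.8% of tested genes showed. Unadjusted p was under 0.05 for 13 members and for 36.8% of tested genes.

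The remaining members had differences between -0.12 and 0.21. Tra2a and Tra2b, which bind GAA-rich exonic enhancers, differed by -0.01 and 0.15. Rbfox2 differed by -0.08, U2af1, which reads the AG of the 3′ splice site, by -0.12, and Nova1, a neuronal YCAY-binding protein, by -0.06. Tia1 and Tial1, which bind U-rich RNA beside weak 5′ splice sites, differed by 0.21 and 0.07. Elavl1 (HuR), which stabilizes AU-rich mRNAs, differed by -0.02. After quantile normalization Tra2a (0.08), Rbfox2 (0.0014) and Elavl1 (0.06) were above 0. None of these 8 passed the threshold.

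**Figure D3:**
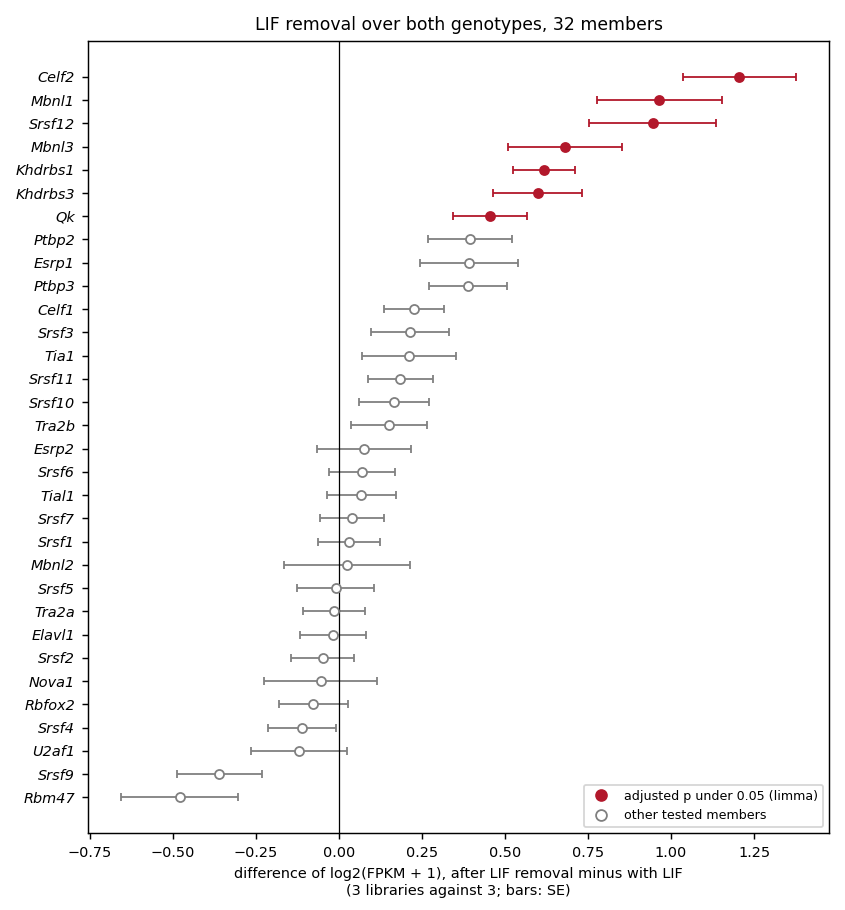
Difference of log2(FPKM + 1), after LIF removal minus with LIF, for the 32 tested members; points are estimates of the limma fit, bars their SE, and filled red points passed an adjusted p of 0.05. The 7 that passed lie between 0.45 (Qk) and 1.21 (Celf2), while the SR proteins other than Srsf12 lie between -0.36 and 0.21.

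Marker genes of other cell types were set beside these calls. The lists were chosen with earlier results of these data known, so their counts are a description. All 6 pluripotency markers were called lower after LIF removal, where 12.7% of all tested genes were. The 7 epithelial markers summed to 642 and 801 FPKM in KO and 726 FPKM in WT cells without LIF, against 469 and 437 FPKM in KO and 429 FPKM in WT cells with LIF. All 3 libraries after LIF removal were above all 3 with LIF, and 4 of the 7 were called higher, where 8.73% of all tested genes were. The lowest p was that of Cldn7, a tight junction protein, with 48.6 and 59.2 FPKM in KO and 57.2 FPKM in WT cells without LIF, against 27.9 and 26.7 FPKM in KO and 25.3 FPKM in WT cells with LIF (difference 1.02, adjusted p = 0.00180). The 6 mesenchymal markers, of which 5 averaged 1 FPKM or more, summed to 58.3 and 110.0 FPKM in KO and 44.7 FPKM in WT cells without LIF, against 37.5 and 61.3 FPKM in KO and 31.8 FPKM in WT cells with LIF. These sums overlapped, but 2 of the 5 tested markers were called higher and 1 lower. N-cadherin (Cdh2) had 4.54 and 6.14 FPKM in KO and 3.59 FPKM in WT cells without LIF, against 1.82 and 2.97 FPKM in KO and 0.541 FPKM in WT cells with LIF (difference 1.13, adjusted p = 0.0117). Twist1, a transcription factor of mesenchyme, had 6.45 and 6.63 FPKM in KO and 7.50 FPKM in WT cells without LIF, against 4.02 and 3.31 FPKM in KO and 1.85 FPKM in WT cells with LIF (difference 0.99, adjusted p = 0.0139). Zeb1, a repressor of epithelial genes, was the one called lower (difference -0.77, adjusted p = 0.0276). The 6 primitive endoderm markers, 2 of them averaging 1 FPKM or more, summed to 7.76 and 11.8 FPKM in KO and 5.41 FPKM in WT cells without LIF, against 3.87 and 4.39 FPKM in KO and 2.06 FPKM in WT cells with LIF. Again all 3 libraries without LIF were above the 3 with it, and of the 2 tested Dab2, an endocytic adaptor, was called higher (difference 1.57, adjusted p = 0.00693). Dab2 made up most of the sums without LIF, at 5.21 and 9.09 FPKM in KO and 3.62 FPKM in WT cells. With LIF it had 0.900 and 2.32 FPKM in KO and 0.767 FPKM in WT cells. The other tested marker, Gata4, overlapped, at 1.42 to 1.92 FPKM without LIF against 1.05 to 2.13 FPKM with LIF. Of the 5 neural markers tested 2 were called higher and 1 lower. Nestin (Nes), an intermediate filament of neural progenitors, had 11.2 and 16.0 FPKM in KO and 18.3 FPKM in WT cells without LIF, against 3.41 and 4.42 FPKM in KO and 1.57 FPKM in WT cells with LIF (difference 2.01, adjusted p = 0.00352). Map2, of neuronal microtubules, had 4.73 and 3.20 FPKM in KO and 4.23 FPKM in WT cells without LIF, against 1.82 and 2.40 FPKM in KO and 2.34 FPKM in WT cells with LIF (difference 0.66, adjusted p = 0.0381). The neuronal tubulin Tubb3 was lower, with 48.4 and 47.5 FPKM in KO and 77.1 FPKM in WT cells without LIF, against 84.5 and 75.9 FPKM in KO and 81.3 FPKM in WT cells with LIF (difference -0.51, adjusted p = 0.0398). The 7 neural markers summed to 118 to 168 FPKM without LIF against 149 to 171 FPKM with LIF, and the 6 muscle markers to 4.85 to 9.21 FPKM against 5.28 to 8.28 FPKM. These sums overlapped, no muscle marker was called, and no marker was at 0 in all 6 libraries. The part of these cell types in the 7 calls was not tested. Of the 7 fibroblast markers, which would show feeder cells, 1 averaged 1 FPKM or more, with sums of 3.33 to 8.36 FPKM over all libraries.

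In knockout cells alone, with 2 libraries against 2, 4 of the 32 members passed the threshold in a fit of 4 groups, all higher, where 6.92% of all tested genes passed it and 3.05% were higher. Celf2 had a difference of 1.28 (SE 0.22, adjusted p = 0.0276), Mbnl1 of 1.09 (SE 0.23, adjusted p = 0.0451), Qk of 0.57 (SE 0.13, adjusted p = 0.0495) and Khdrbs1 of 0.55 (SE 0.12, adjusted p = 0.0442). Of these, Celf2 met the minimum of 1 FPKM only through the libraries without LIF. No member passed when any 1 knockout library was left out or with no minimum level, 1 passed with a minimum mean of 5 FPKM and 2 with 0.1 added in place of 1. Mbnl3 (0.79), Srsf12 (0.94) and Khdrbs3 (0.58) had differences of the same sign that did not pass (adjusted p = 0.0760, 0.0731 and 0.100). Unadjusted p was under 0.05 for 10 members and for 27.5% of tested genes.

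In wild type cells, with 1 library against 1, LIF removal was read by the size of the difference and not tested. Celf2 was the only member past an absolute log2 difference of 1, at 1.06, against 8.36% of tested genes (3.80% higher and 4.56% lower). Srsf12 (0.95), Khdrbs1 (0.74), Mbnl1 (0.72), Khdrbs3 (0.64) and Esrp1 (0.63) followed. Celf2 and Srsf12 met the minimum of 1 FPKM only through the libraries without LIF, where they are high. With 0.1 added in place of 1, 3 members were past a log2 difference of 1, with a minimum mean of 5 FPKM or after quantile normalization 0, and with centring per chromosome 2. The lowest were Rbm47 (-0.88) and Mbnl2 (-0.54), both higher in the wild type library with LIF. For Qk the difference was 0.22 in wild type cells and 0.57 in knockout cells. The difference of the responses of Qk, knockout minus wild type, was 0.35 (SE 0.22, 95% interval -0.18 to 0.89) and did not pass.

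Knockout against wild type was tested over both media, with 4 libraries against 2, in the fit of genotype and medium. This fit treats libraries of the same knockout number, and those of wild type cells, as independent between media. Over all tested genes, number 2 minus number 1 correlated at 0.37 between media. Hnrnpf RNA was at 28.4% of wild type without LIF and 28.9% with LIF in number 1, and at 8.28% and 10.8% in number 2. If a number marks the same line in both media, the SE and p-values here rest on fewer lines than libraries. None of the 32 members passed the threshold, where 10.5% of all tested genes did, 5.79% higher and 4.67% lower. Unadjusted p was under 0.05 for 6 members (Tia1, Mbnl1, Qk, Tial1, Srsf9 and Elavl1) and for 27.7% of tested genes. The member differences had a median of -0.08, against -0.03 for all tested genes, and ran from -0.39 (Srsf9) to 0.63 (Mbnl1).

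Tia1, which aids recognition of weak 5′ splice sites and forms stress granules, came nearest. It had 21.2 and 16.4 FPKM in KO against 11.0 FPKM in WT cells without LIF, and 14.6 and 15.0 FPKM in KO against 10.9 FPKM in WT cells with LIF. It was the only tested member with all 4 knockout libraries above both wild type libraries, as 11.9% of tested genes had. The log2 difference over both media was 0.56 (SE 0.15, adjusted p = 0.0514). Tia1 passed with a minimum mean of 5 FPKM, after quantile normalization and after median ratio scaling (adjusted p = 0.0410, 0.0494 and 0.0451). With values centred on the median of each chromosome its adjusted p was 0.146. Its paralog Tial1 lay on the other side, with 21.7 and 22.6 FPKM in KO against 27.3 FPKM in WT cells without LIF, and 20.4 and 21.0 FPKM in KO against 27.0 FPKM in WT cells with LIF. The difference was -0.33 (SE 0.11, adjusted p = 0.0959), and all 4 knockout libraries were below both wild type libraries.

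Mbnl1 had the highest estimate, 0.63 (SE 0.20, adjusted p = 0.0822), with both knockout libraries above the wild type library in each medium. Mbnl3 had 0.31 (SE 0.18, adjusted p = 0.320) and the same order. Qk had 61.3 and 58.5 FPKM in KO against 68.1 FPKM in WT cells without LIF, and 38.2 and 41.8 FPKM in KO against 58.4 FPKM in WT cells with LIF. Its difference was -0.36 (SE 0.12, adjusted p = 0.0945), lower in the knockout libraries in each medium. Srsf9 had 73.7 and 94.1 FPKM in KO against 121 FPKM in WT cells without LIF, and 122 and 107 FPKM in KO against 136 FPKM in WT cells with LIF, with a difference of -0.39 (SE 0.13, adjusted p = 0.105). The gene overlaps Gatc, which is also expressed, and whether counting used strand was not stated. The RNA stabilizer Elavl1 had 35.6 and 33.8 FPKM in KO against 41.3 FPKM in WT cells without LIF, and 33.7 and 36.0 FPKM in KO against 42.5 FPKM in WT cells with LIF, and a difference of -0.26 (SE 0.10, adjusted p = 0.151).

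All 4 knockout libraries were below both wild type libraries in 7 members (Srsf4, Srsf5, Tra2a, Esrp2, Nova1, Tial1 and Elavl1), as in 13.0% of tested genes. Taken medium by medium, both KO libraries lay above the WT library of each medium in 5 members (Mbnl1, Mbnl3, Celf2, Khdrbs1 and Tia1) and in 21.6% of tested genes. They lay below it in 13 members and in 26.1% of tested genes. The differences of the 7 other than those above were -0.24 for Srsf4, -0.25 for Srsf5, -0.16 for Tra2a, -0.24 for Esrp2 and -0.38 for Nova1. Esrp2 overlaps the expressed genes Nfatc3 and 1810019D21Rik. Of the members that rose on LIF removal, Celf2 (0.20), Srsf12 (0.10), Khdrbs1 (0.18) and Khdrbs3 (-0.17) had knockout differences that did not pass the threshold. Their 95% intervals were -0.21 to 0.62, -0.37 to 0.57, -0.05 to 0.41 and -0.50 to 0.16, in that order. The difference of Srsf12 was -0.07 after quantile normalization. For the abundant SR proteins the 95% intervals were -0.14 to 0.31 for Srsf1, -0.16 to 0.42 for Srsf3, -0.28 to 0.21 for Srsf6 and -0.29 to 0.18 for Srsf7.

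Within 1 medium, no member passed with LIF (0.0424% of tested genes did) or after LIF removal (0.0594%). Each medium has 1 wild type library, which is assumed to vary like the knockout libraries. With LIF, unadjusted p was under 0.05 for Qk alone of the members and for 16.7% of tested genes. Qk differed by -0.54 (SE 0.16, adjusted p = 0.175) with LIF. After LIF removal it was under 0.05 for Srsf9, Mbnl1, Mbnl2 and Tia1, and for 15.5% of tested genes. Mbnl1 differed there by 0.82 (SE 0.29, adjusted p = 0.250), Tia1 by 0.71 (SE 0.22, adjusted p = 0.201), Mbnl2 by 0.70 (SE 0.21, adjusted p = 0.199) and Srsf9 by -0.53 (SE 0.19, adjusted p = 0.263). The knockout differences of the 2 media had the same sign in 26 of 32 members (81.2%) and in 70.6% of all tested genes. Across genes, which are not independent, their Pearson correlation was 0.65 for the 32 members and 0.62 for the 11785 tested genes. The 2 media share no library, but both are set against E14 cells. Libraries of the same knockout number may also come from the same line, so the 2 media need not be independent.

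**Figure D4:**
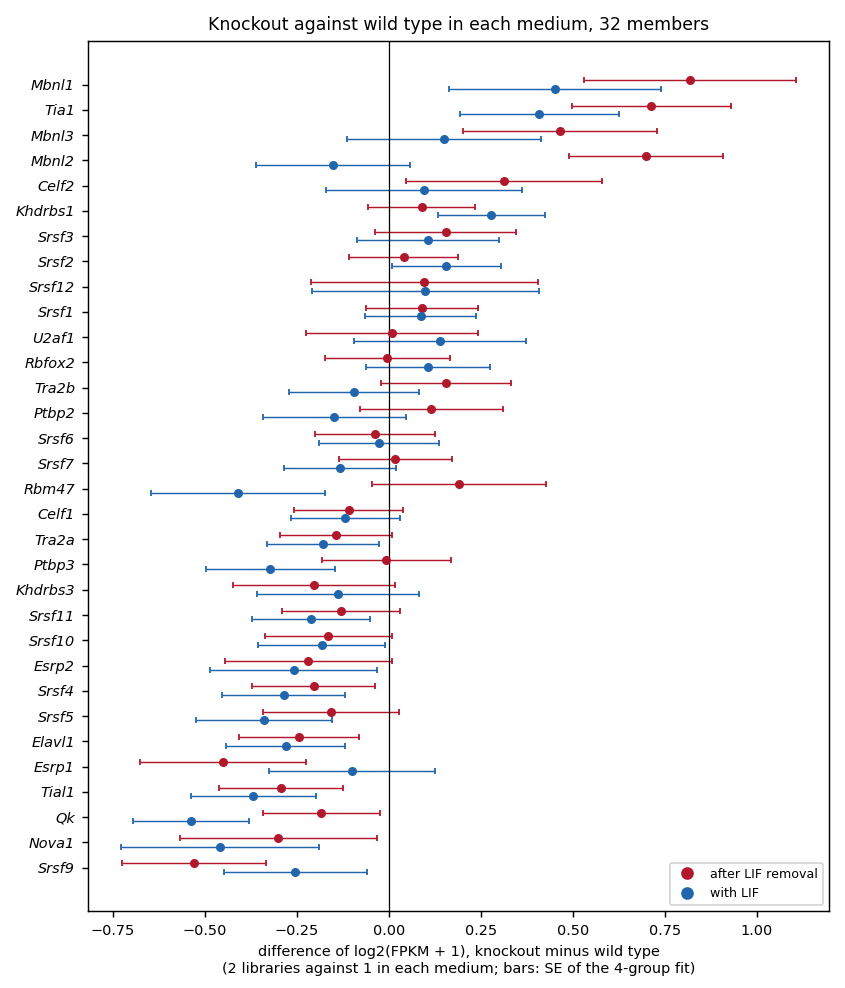
Difference of log2(FPKM + 1), knockout minus wild type, for the 32 tested members after LIF removal (red) and with LIF (blue); bars are the SE of the 4-group fit. Mbnl1 and Tia1 lie to the right in both media, Srsf9, Tial1 and Nova1 to the left, and Mbnl2 on opposite sides (0.70 after LIF removal, -0.15 with LIF); no difference passed the threshold.

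Several members lie in chromosome regions in which many genes differed between genotypes, so each was set beside the tested genes within 10 Mb on either side. Srsf1 (chromosome 11, 88046499 to 88053757) and Srsf2 (chromosome 11, 116849897 to 116853675) are on chromosome 11, where 366 of 1007 tested genes were called higher in knockout cells. The 194 neighbours of Srsf1 had a median difference of 0.52, while Srsf1 itself differed by 0.09. The 162 neighbours of Srsf2 had a median of 0.43, while Srsf2 differed by 0.10. Of the tested genes of chromosome 11, 12.7% had a difference at or below that of Srsf1 and 13.7% at or below that of Srsf2. With values centred on the median of each chromosome, the difference of Srsf1 was -0.36 (adjusted p = 0.0636) and that of Srsf2 -0.35 (adjusted p = 0.0761), both of opposite sign to the values without centring. Srsf2 overlaps the expressed gene Mfsd11.

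Tia1 (chromosome 6, 86404203 to 86433405) differed by 0.56, and its 101 neighbours on chromosome 6 had a median of 0.65. Its difference was below that median. Tra2a, elsewhere on chromosome 6, differed by -0.16 with neighbours at 0.10. Elavl1 (chromosome 8, 4284781 to 4325140) differed by -0.26, and its 55 neighbours on chromosome 8 had a median of -0.35. The 111 neighbours of Esrp2, also on chromosome 8, had a median of -0.05 over both media but differed between knockout numbers 1 and 2, at 0.03 and -0.33 without LIF and at 0.23 and -0.22 with LIF; Esrp2 itself differed by -0.24. For the other 26 tested members the neighbours had medians between -0.13 and 0.05, Mbnl1 (-0.04), Qk (-0.01) and Srsf9 (-0.10) included. The part of these regions in the members' values was not tested.

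**Figure D5:**
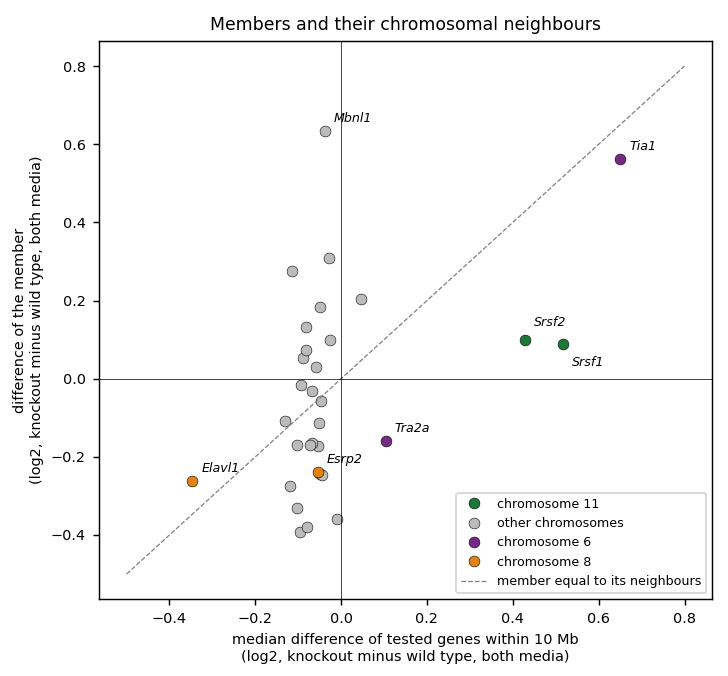
Knockout minus wild type difference (log2, both media) of each tested member against the median difference of the tested genes within 10 Mb; the dashed line marks equality. Srsf1 and Srsf2 lie far below the line (0.09 and 0.10 with neighbours at 0.52 and 0.43), Tia1 close to it (0.56 with neighbours at 0.65), and Mbnl1 well above it (0.63 with neighbours at -0.04).

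Srsf2 was also set against the rest of its family. Its share of the summed FPKM of the 11 SR proteins was 31.3% and 30.8% in KO against 29.6% in WT cells without LIF, and 33.3% and 33.4% in KO against 29.5% in WT cells with LIF. All 4 knockout libraries lay above both wild type libraries. The share was computed for Srsf2 alone, after the values were seen, and no test of it was made. It also depends on the levels of the other SR proteins in the sum.

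No member passed the test of whether LIF removal acted differently in knockout and wild type cells, and 0.00% of all tested genes did. Mbnl2 alone of the members had an unadjusted p under 0.05, as did 2.89% of tested genes. As given above, its knockout libraries lay above wild type after LIF removal and below it with LIF. The difference of responses was 0.85 (SE 0.30, adjusted p = 0.9996). For the members that rose on LIF removal, this difference lay between -0.19 (Khdrbs1) and 0.37 (Mbnl1), with 95% intervals that all held 0.

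Other splicing genes were counted by list, beside 10.5% of all tested genes called for knockout over both media and 21.4% for LIF removal over both genotypes. These lists too were chosen with earlier results of these data known. Of 19 SR-related proteins tested, such as Srrm1, Srrm2 and Son, none passed in any comparison. Of 9 kinases and importers of SR proteins tested, 1 was lower in knockout cells and 1 higher after LIF removal. Srpk1, the kinase that phosphorylates SR proteins in the cytoplasm, had 50.5 and 46.7 FPKM in KO against 71.2 FPKM in WT cells without LIF, and 53.0 and 55.8 FPKM in KO against 72.9 FPKM in WT cells with LIF. It was lower in all 4 knockout libraries than in both wild type libraries, with a difference of -0.48 (SE 0.10, adjusted p = 0.0272). Prpf4b, a spliceosomal kinase, was higher after LIF removal by 0.44 (SE 0.10, adjusted p = 0.0201). Of 18 factors of the 3′ splice site and the U2 particle, 1 passed. It was U2af2, the large partner of U2af1, which had 123 and 139 FPKM in KO against 179 FPKM in WT cells without LIF, and 147 and 140.4 FPKM in KO against 187 FPKM in WT cells with LIF. It was lower in knockout cells, with a difference of -0.41 (SE 0.10, adjusted p = 0.0376).

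Of 14 factors of the U1 and tri-snRNP particles, Usp39 and Eftud2 were higher in knockout cells, by 0.87 (SE 0.11, adjusted p = 0.00852) and 0.59 (SE 0.11, adjusted p = 0.0172). They lie on chromosomes 6 and 11 among neighbours with median differences of 0.72 and 0.48. Sart1 was lower after LIF removal, with a difference of -0.61 (SE 0.17, adjusted p = 0.0371). Of 10 factors of nonsense-mediated decay, Smg8 and Smg6 were higher in knockout cells, by 0.70 (SE 0.10, adjusted p = 0.0111) and 0.66 (SE 0.14, adjusted p = 0.0283), both on chromosome 11 with neighbours at 0.51 and 0.46. Of 25 relatives and other tissue regulators 16 were tested. Rbpms2, an RNA-binding protein of smooth muscle, was lower in knockout cells, with a difference of -0.61 (SE 0.11, adjusted p = 0.0181). Rbms1, a single-stranded nucleic acid binding protein, was higher after LIF removal. It had 23.2 and 26.7 FPKM in KO and 22.2 FPKM in WT cells without LIF, against 7.57 and 8.70 FPKM in KO and 11.7 FPKM in WT cells with LIF, with a difference of 1.29 (SE 0.16, adjusted p = 0.00241) over both genotypes and 1.51 (SE 0.16, adjusted p = 0.0166) in knockout cells. The median differences of the 6 lists lay between -0.19 and 0.08 for knockout and between -0.11 and 0.10 for LIF removal, against -0.03 and -0.03 for all tested genes. Calls of the knockout over both media rest on 2 wild type libraries: without the one without LIF 5 of all genes passed, and without the one with LIF 7.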

How the data were processed

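Expression was measured by RNA-seq of total RNA in 6 libraries of mouse ESCs. The authors deposited 1 table of FPKM per gene symbol, and STAR, Cufflinks and the mm10 build are named in the submitters' processing notes. Their versions and settings and the gene annotation were not stated there. No read counts were used, so the depth behind a value is unknown and no counting interval is given. Reads shared with close paralogs, pseudogenes or overlapping genes may be split or lost.

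Members were all rows with the 35 symbols, each found once, and all are named. They and the gene lists were chosen with earlier results of these data known. Values were analysed as log2(FPKM + 1). Genes averaging 1 FPKM or more were tested with limma 3.58.1 in R 4.3.3 (empirical Bayes with an intensity trend, two-sided, Benjamini-Hochberg over 11785 genes). The model with genotype and medium has 3 residual and 5.08 prior degrees of freedom, and a fit of 4 groups has 2 and 4.70. Wild type LIF removal, 1 library against 1, was read by a log2 difference of 1 or more in size. SE and 95% intervals come from these fits. The code was run on simulated data with independent noise in each library, for knockout over both media and LIF removal over both genotypes. Those data held no effect shared by libraries of the same knockout number and no chromosome-wide shift, so they give no error rates here. Gene positions are from RefSeq on GRCm38.p6. Alternatives were the pseudocount, the minimum level, the scaling, the trend, centring per chromosome, only the groups compared, the knockout number as a block, and leaving out each library.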

Additional observations from a re-analysis of the deposited data

Results flagged for a closer look

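For 3 of the 32 tested members, the difference had opposite directions in the 2 media or in the 2 genotypes in every library. The share of all tested genes with such a pattern is not given, so this count cannot be set against it. By group means alone, the knockout difference had opposite signs in the 2 media in 6 of the 32. It had the same sign in 81.2% of the members and in 70.6% of all tested genes. The difference on LIF removal had opposite signs in knockout and wild type cells in 5, with no share over all tested genes to set beside it. For Mbnl2, both knockout libraries lay above the wild type library after LIF removal (difference 0.70) and below it with LIF (-0.15). On LIF removal both knockout libraries were higher and the wild type library was lower, and the difference of responses was 0.85 (SE 0.30, limma adjusted p = 0.9996). For Rbm47, an epithelial regulator, the wild type library lay below both knockout libraries without LIF (knockout difference 0.19) and above both with LIF (-0.41), while on LIF removal both genotypes were lower (-0.28 in knockout and -0.88 in wild type cells), and the difference between them was 0.60 (SE 0.33, adjusted p = 0.9996). For Tra2b, an SR-like protein, every knockout library after LIF removal was above those with LIF while the wild type library was below, and the difference of responses was 0.25 (SE 0.25, adjusted p = 0.9996). Each of the 3 rests in part on a narrow gap. With LIF, Mbnl2 had 18.8 FPKM in knockout number 2 against 19.0 FPKM in wild type cells. Without LIF, Rbm47 had 6.61 FPKM in knockout number 1 against 6.40 FPKM in wild type cells. In wild type cells Tra2b had 70.8 FPKM without LIF against 71.6 FPKM with LIF. None of the 3 passed the threshold, each has 1 wild type library per medium, and their cause was not tested.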

How the results depend on the processing

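The count of members called moved under several settings. On LIF removal over both genotypes it was 7, against 0 without a minimum level (adjusted p 0.0568 to 0.138 for the 7), 4 with a minimum mean of 5 FPKM and 4 to 5 with 1 library left out. On LIF removal in knockout cells it was 4, against 2 with a pseudocount of 0.1, 0 without a minimum, 1 with a minimum of 5 FPKM and 0 to 4 with 1 library left out. For knockout over both media it was 0, against 1 (Tia1) with a minimum of 5 FPKM, after quantile normalization and after median ratio scaling. In wild type cells 1 member passed a log2 difference of 1, against 3 with a pseudocount of 0.1, 0 with a minimum of 5 FPKM, 0 after quantile normalization and 2 with centring per chromosome. The other counts of members, block aside, stayed within 1.5 times. No member with an adjusted p under 0.1 changed direction in that comparison. Of the tested members, Srsf5, Tra2a and Elavl1 on LIF removal and Ptbp2 for knockout changed sign with quantile normalization and median ratio scaling, Srsf2 and Rbfox2 on LIF removal and Srsf6, Srsf7 and Srsf12 for knockout with quantile normalization, and Elavl1, Srsf2, Rbfox2 and Mbnl2 on LIF removal and Srsf1, Srsf2, Srsf6, Srsf7 and Ptbp2 for knockout with centring. Higher minimum levels remove Celf2, Mbnl1, Mbnl3 and Srsf12 from the test; the cause of the other moves was not tested. Scaling moved the median of all genes by 0.02 to 0.03. Single members moved by more, such as Srsf2 on LIF removal, from -0.05 to 0.15 with quantile normalization.

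Over all genes, 1232 were called for knockout over both media, against 25 without a minimum, 711 with centring, and 5 and 7 without the wild type library after LIF removal or with LIF, and 560 without knockout number 2 with LIF. With LIF 5 were called, against 198 without a minimum, 10 with centring, 0 without the trend and 14 at most with 1 library left out. After LIF removal 7 were called, against 13 with a pseudocount of 0.1, 243 without a minimum, 16 with only the groups compared, 4 without the trend and 16 at most with 1 library left out. LIF removal gave 2523, against 68 without a minimum and 817 to 1924 with 1 library left out. In knockout cells it gave 816, against 44 and 124 to 821. The difference of responses gave 0, against 337 without a minimum and 1 without knockout number 1 with LIF.

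The labels do not say what a knockout number marks, and with 2 pairs the deviations of same-numbered libraries correlated at 0.37 over all tested genes and -0.21 over members. With the number as a replicate block, members called were 1 (Tia1) for knockout over both media, 1 (Mbnl2) after LIF removal, 9 for LIF removal in knockout cells and 10 over both genotypes, of which Rbm47 was lower (-0.48, adjusted p = 0.0478). Over all genes the block gave 2147 calls for knockout over both media, 971 with LIF, 783 after LIF removal and 2621 for LIF removal in knockout cells. With 1 or 2 libraries a group, only differences large against this spread can pass.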
